A study of Rattus norvegicus with 96 samples.

Results

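The genes described here are the cadherins and protocadherins of the rat, read in the central nucleus of the amygdala of lines bred for high or low alcohol consumption. A probe set of the array belonged to the group when its annotation gave exactly 1 gene symbol and that symbol was Cdh or Pcdh followed by a digit, or began with Pcdha, Pcdhb or Pcdhg. The rule found 46 probe sets of 33 genes among 31042 probe sets, of which the 1-symbol ones stood for 14217 genes. Of the 33 genes, 24 had 1 probe set, 5 had 2 and 4 had 3. The rule found 0 probe sets that named a single Pcdhg gene.

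Each of the 96 arrays held RNA of the central nucleus of 1 rat. The 5 line pairs, preferring line first, were HAD1 (9 arrays) with LAD1 (10), HAD2 (10) with LAD2 (10), P (10) with NP (10), AA (10) with ANA (10), and sP (8) with sNP (9). No transgene or drug is named in the labels, and the labels used here state no sex, age or contact with alcohol. Rats of a selected line share descent, so a difference between the lines of a pair holds for those lines, and its p-value measures the spread between arrays.

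Cadherins are membrane proteins whose outer repeats bind calcium and, in most members, stick to a like molecule on the next cell. Classical cadherins, which are divided into type I and type II, hold their grip through catenins that tie the inner tail to actin. Protocadherins have other tails, and the clustered alpha, beta and gamma genes stand in tandem arrays from which each neuron expresses its own choice, so that branches of one neuron can recognise each other. In the brain these genes take part in sorting neurons into nuclei, in guiding axons and in building synapses.

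The probe set rule left 4 classical type I genes with 7 probe sets, 8 type II genes with 11 and 4 other cadherin genes with 6. It left 6 delta-protocadherin genes with 9 probe sets, 2 other non-clustered protocadherin genes with 3, and 9 clustered protocadherin genes with 10, of which 7 genes with 8 probe sets were Pcdhb. Of the 44 probe sets that could be matched to a chromosome in RefSeq, 11 lay on chromosome 18, those of the Pcdhb genes and of Cdh2. The probe sets of Pcdha12 and Pcdha13 had no such match, so their chromosome was not read.

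The promoter sequences below are shown because the results turn on a Pcdhb gene, Pcdhb19, and on Cdh20. The promoter table covered 21 of the 33 genes, from 250 bases before to 50 bases after each gene's start in RefSeq (GRCr8). Promoters of clustered protocadherins are known to share a conserved element. The 10-base word held by most Pcdhb promoters, picked after they were read and searched on both strands, was GGTGGCGCTG. It stood in 15 of the 19 Pcdhb promoters of the table, in 5 of the 5 that belonged to measured genes, in 0 of the 16 promoters of the other members and in 74 of all 33469 promoters, which is 0.221%. Around it, 30 bases of each measured gene's promoter read as follows on the plus strand, with the word in capitals.
Pcdhb6: tagtacacacGGTGGCGCTGcagtctaagg
Pcdhb9: aaagacacagGGTGGCGCTGcaggctaaga
Pcdhb12: aaggacgcttGGTGGCGCTGcaggctaaga
Pcdhb19: gaagacacatGGTGGCGCTGcaggataatg
Pcdhb21: atagtcacatGGTGGCGCTGcaggatagga
These stretches lie at chr18:29320152-29320181, chr18:29379248-29379277, chr18:29413648-29413677, chr18:29478764-29478793 and chr18:29492149-29492178 of GRCr8, in the order printed. The match describes letters, and the arrays hold no measure of what binds there.

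The whole Pcdhb19 promoter window, chr18:29478598-29478897 on the plus strand, carried the word 74 bases before the start, again in capitals.
Pcdhb19 promoter: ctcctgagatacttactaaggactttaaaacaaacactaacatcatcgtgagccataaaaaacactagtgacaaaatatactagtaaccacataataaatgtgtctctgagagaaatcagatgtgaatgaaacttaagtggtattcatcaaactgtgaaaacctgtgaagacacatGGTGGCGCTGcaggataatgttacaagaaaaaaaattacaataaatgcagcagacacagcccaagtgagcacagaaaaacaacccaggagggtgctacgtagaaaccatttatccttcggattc
The Cdh20 window, chr13:21515017-21515316 on the plus strand, held no copy of the word.
Cdh20 promoter: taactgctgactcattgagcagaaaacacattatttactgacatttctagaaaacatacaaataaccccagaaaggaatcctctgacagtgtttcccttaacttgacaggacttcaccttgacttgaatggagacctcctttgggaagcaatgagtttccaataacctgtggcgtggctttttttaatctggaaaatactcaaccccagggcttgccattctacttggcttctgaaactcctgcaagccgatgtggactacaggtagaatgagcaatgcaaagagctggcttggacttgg

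Several facts of the whole series bear on what follows. Array medians ran from 7.77 to 8.02 on the log2 scale. Of the tissue markers, Gad1, Penk and Slc32a1 had mean levels of 14.3, 13.9 and 11.9. On every array they were at least 13.8, 12.1 and 10.8. Sst ran from 6.07 to 13.9 and Crh from 5.9 to 11.5 between arrays. The lowest values of Sst and Crh lay below the lowest array median. The log2 ratio of the 3' to the 5' GAPDH control, a sign of RNA quality and amplification, had group means of 3.33 to 4.09 in HAD1, LAD1, HAD2 and LAD2 and of 0.197 to 0.432 in the other 6 lines. Levels were therefore compared within pairs only. Placed between the lines of its pair by probe sets that are not members, each array was scored on odd and on even chromosomes. Of the 96 arrays, 14 lay on the other line's side in both scores: HAD1 28, LAD1 37, P 1, P 9, NP 1, NP 9, AA 15, AA 17, AA 19, ANA 16, sP 2, sP 9, sNP 8 and sNP 9. HAD2 and LAD2 had none. The sP 2 and sNP 2 arrays were nearly the same, with an SD of the difference of 0.0901 over all probe sets against 0.165 for the next closest arrays. Results are given with all arrays as labelled and then without the 14, a choice that by its making favours differences between lines.

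No cadherin or protocadherin passed a test for a difference shared by the 5 pairs. Of the 46 probe sets, 0 passed the test on the mean of the 5 differences (Benjamini-Hochberg adjusted p under 0.05, limma over all probe sets), against 0.986% of all probe sets, and 2 were below 0.05 without adjustment against 7.8%. With the line pair as the replicate 0 passed, against 0% of all probe sets, and 2 were below 0.05 unadjusted against 2.99%. The mean differences, preferring minus non-preferring, ran from -0.080 for Cdh20 to 0.081 for Cdh23 on the log2 scale.

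Within single pairs few members passed the adjusted test. In HAD1 minus LAD1, 1 of the 46 passed, which was Cdh20 and was lower, against 0.963% of all probe sets, and 5 were below 0.05 unadjusted (5 lower) against 11%. In HAD2 minus LAD2, 0 passed against 4.09%, and 7 were below 0.05 unadjusted (5 higher, 2 lower) against 16.4%. The remaining pairs had 0 passing members, and in each of them 0% of all probe sets passed. Below 0.05 without adjustment were 4 members in P minus NP (4 higher) against 4.91%, 5 in AA minus ANA (2 higher, 3 lower) against 4.92%, and 1 in sP minus sNP (lower) against 4.32%. Under the adjusted test Cdh20 was thus the single member called in a pair. As shares of the 46, the unadjusted counts were above those of all probe sets in P minus NP and AA minus ANA only. The members' median absolute differences were 0.0638, 0.0737, 0.071, 0.0911 and 0.0604 in the 5 pairs, in the order above. Over all probe sets they were 0.0627, 0.0681, 0.0487, 0.0555 and 0.0433. Whether the members as a set differed from the rest was not tested.

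With all arrays as labelled, in each of the 5 pairs the 95% interval of the difference lay within 1 log2 unit of 0, which is under 2-fold, for all 46 probe sets. It lay within 0.5 log2 units for 44 in HAD1 minus LAD1, 46 in HAD2 minus LAD2, 39 in P minus NP, 41 in AA minus ANA and 45 in sP minus sNP. Without the 14 arrays the counts within 1 log2 unit were 46, 46, 44, 45 and 46 in that order of pairs, and within 0.5 log2 units 44, 46, 37, 32 and 42, with Pcdhb17 reaching 1.03 and Cdh3 1.02 in P minus NP, and Pcdhb17 -1.14 in AA minus ANA, at the far ends of their intervals. With all arrays the median distance from the difference to either end of its interval was 0.193, 0.173, 0.198, 0.205 and 0.17 in the same order. Without the 14, the members' differences ran from -0.497 to 0.214 in HAD1 minus LAD1, from -0.274 to 0.694 in P minus NP, from -0.696 to 0.417 in AA minus ANA and from -0.322 to 0.311 in sP minus sNP.

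Signs were mixed. The difference was above 0 for 27 members in HAD1 minus LAD1, 31 in HAD2 minus LAD2, 30 in P minus NP, 23 in AA minus ANA and 24 in sP minus sNP. The members' medians were 0.014, 0.038, 0.027, -0.0019 and 0.0091, beside -0.0029, -0.011, -0.00021, 0.0061 and -0.0055 over all probe sets. In 6 members the sign was positive in 5 of 5 pairs, and in 0 it was negative in all; together these were 13% of members beside 5.21% of all probe sets with 1 sign throughout. The 6 were Cdh10, Cdh15, Cdh23, 2 probe sets of Cdh2 and 1 of Cdh11. Of the 6, 2 kept 1 sign without the 14 arrays, Cdh10 and the Cdh2 probe set 1387259_at.

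**Figure D1:**
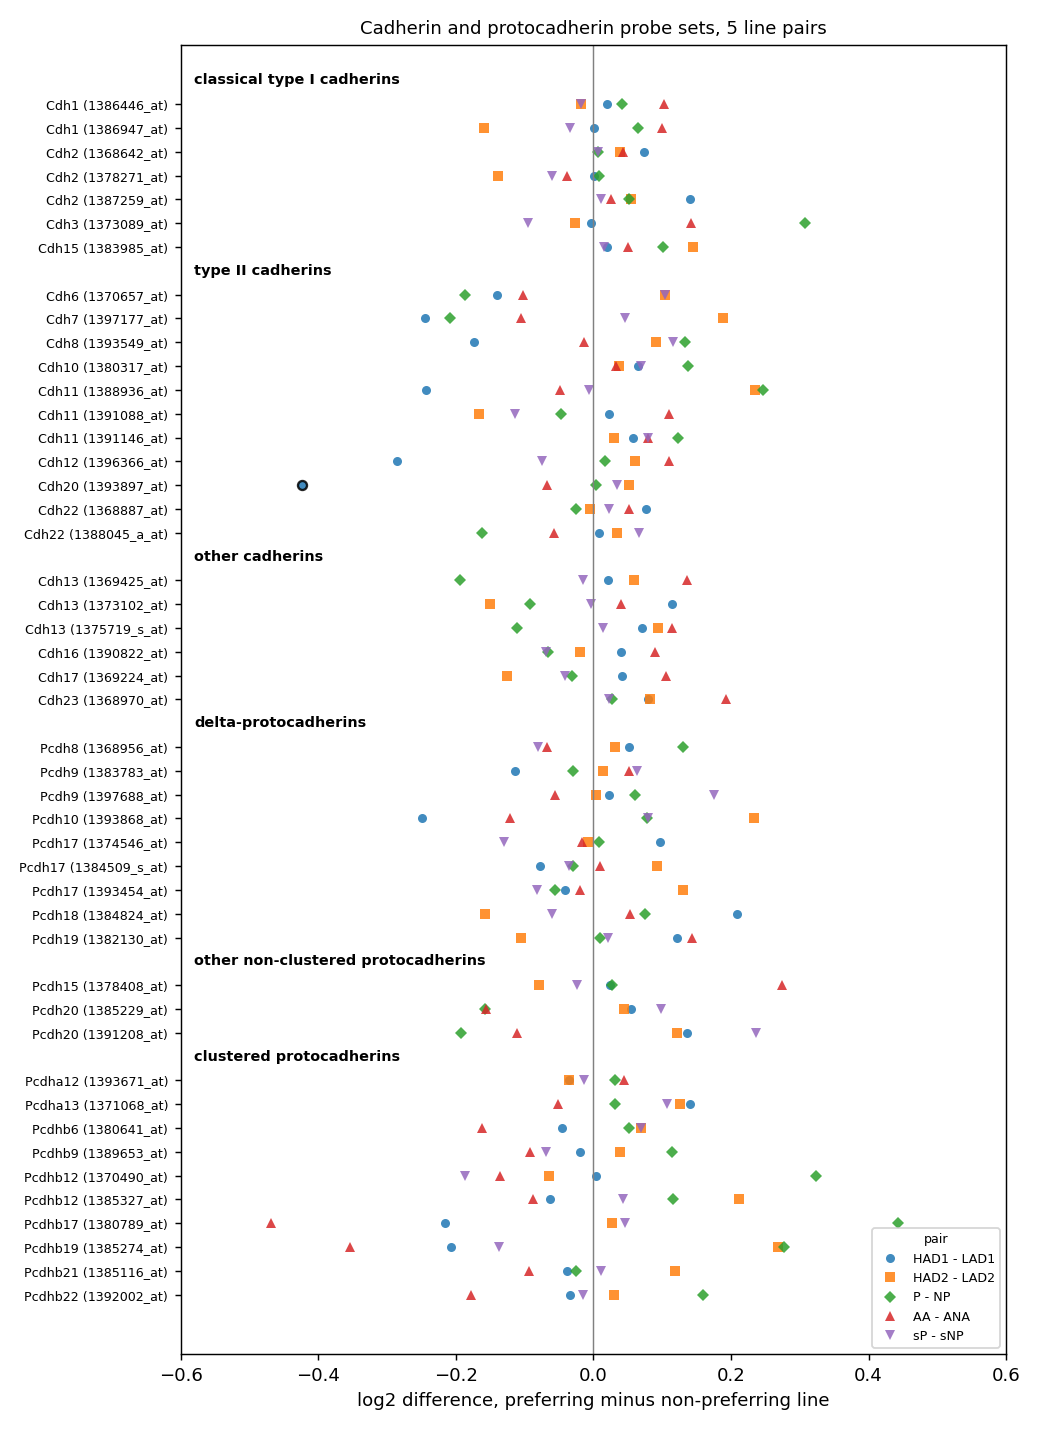
Differences of the member probe sets in each line pair, in log2 units, preferring minus non-preferring, with 1 point per probe set and classes set apart; a black outline marks a probe set past the test. Most points lie close to 0, and the outlined one is Cdh20 in HAD1 minus LAD1, at -0.42.

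Cdh20, a type II cadherin of the nervous system, was lower in HAD1 than in LAD1. In the 9 HAD1 arrays its level was lowest at 7.538, with a median of 7.902 and a highest value of 8.247. In the 10 LAD1 arrays the lowest value was 7.971, the median 8.302 and the highest 8.65. The ranges overlapped little: 8 HAD1 arrays lay below every LAD1 array, 6 LAD1 arrays lay above every HAD1 array, and 9 of 9 HAD1 arrays lay below the LAD1 mean. The means were 7.855 ± 0.204 (SD, n = 9) and 8.279 ± 0.209 (SD, n = 10). The difference was -0.42 (SE 0.092, limma adjusted p = 0.0263, 95% interval -0.615 to -0.233), a HAD1 level 0.745 times that of LAD1. In bulk tissue such as this, fewer cells of a type and less RNA per cell cannot be told apart.

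The Cdh20 call stood near the threshold. Leaving out 1 of the 19 arrays at a time gave adjusted p-values from 0.00392 to 0.0603. It rose above 0.05 without HAD1 21 (0.0603), HAD1 23 (0.0553), HAD1 25 (0.0557), HAD1 29 (0.0580), LAD1 34 (0.0538), LAD1 35 (0.0521) or LAD1 36 (0.0559), so the call was lost in 7 of 19 cases. The sample titled LAD1 36 is named HAD1 in its source name. Its own scores, -0.827 on odd and -0.960 on even chromosomes, lay on the LAD1 side. Counted as HAD1, against those scores, it gave a difference of -0.34 with an adjusted p of 0.254. In that fit 0.0129% of all probe sets passed, against 0.963% as labelled. Without HAD1 28 and LAD1 37, the arrays on the other line's side, the difference was -0.50 (adjusted p = 0.00188), and 2.56% of all probe sets passed.

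In the other pairs Cdh20 lay near 0. The differences were 0.051 (95% interval -0.129 to 0.232) in HAD2 minus LAD2, 0.0038 (-0.302 to 0.309) in P minus NP, -0.067 (-0.273 to 0.139) in AA minus ANA and 0.035 (-0.159 to 0.228) in sP minus sNP. The test of whether its difference varied among pairs gave an adjusted p of 0.195 with all arrays and 0.0324 without the 14 arrays. With all arrays, a difference found in the HAD1 pair was therefore not shown to be particular to it.

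Other values moved in the same pair. Of the 9 microglial markers, 0 were higher in HAD1 (median -0.21), and Cx3cr1 and C1qc passed the test as lower; their summed level, as log2, ran from 14.03 to 14.74 in HAD1 and from 14.08 to 14.81 in LAD1. RMA values have no 0, and the weakest of these markers, Itgam, had a mean of 7.37 in HAD1 and 7.45 in LAD1. Of 10 endothelial and pericyte markers 2 were higher and Abcb1a passed as lower. Above 0 were 1 of 9 astrocyte markers (median -0.0646), 2 of 8 oligodendrocyte markers (-0.0606) and 1 of 7 choroid plexus and meningeal markers (-0.0833). The central amygdala, striatal and cortical lists had 5 of 10, 3 of 6 and 4 of 5 above 0. None of the markers in these further lists passed the test. The part of all these markers in the Cdh20 result was not tested. The next gene on the chromosome with a probe set, Rnf152, had a difference of -0.33 (adjusted p = 0.319) in HAD1 minus LAD1 and of 0.715 (adjusted p = 2.421e-07) in HAD2 minus LAD2.

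**Figure D2:**
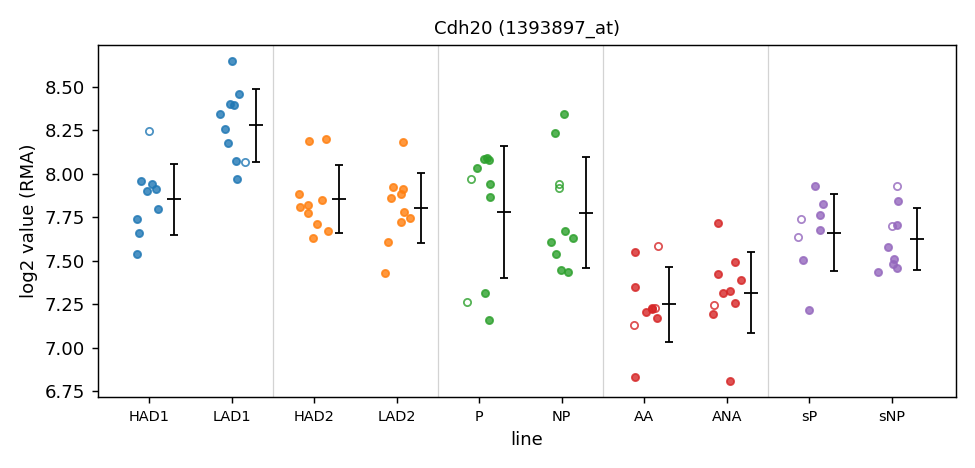
Cdh20 level on each array, in log2 RMA units, by line; bars show the mean ± SD and open circles mark the 14 arrays on the other line's side. In the HAD1 pair 8 of 9 HAD1 points lie below every LAD1 point, while the lines of the other pairs overlap.

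The other type II cadherins did not pass the test in any pair. Cdh7, whose gene also lies on chromosome 13, had a difference of -0.24 (adjusted p = 0.272) in HAD1 minus LAD1 and of 0.19 (0.262) in HAD2 minus LAD2. Its HAD1 arrays ran from 9.27 through a median of 9.526 to 9.837, and its LAD1 arrays from 9.41 through 9.724 to 10.24. Those ranges overlapped, with 8 of 9 HAD1 arrays below the LAD1 mean. Cdh8, which is known for marking matching sides of particular synapses, had a mean difference over pairs of 0.031 (adjusted p = 0.966) and ran from -0.17 in HAD1 minus LAD1 to 0.13 in P minus NP. Cdh12 reached -0.29 in HAD1 minus LAD1 (adjusted p = 0.464) and lay between -0.074 and 0.11 in the other pairs; without the 14 arrays it was -0.31 in sP minus sNP and 0.25 in AA minus ANA (adjusted p = 0.479 and 0.490). Cdh6 ran from -0.19 in P minus NP to 0.10 in HAD2 minus LAD2 and in sP minus sNP, and without the 14 arrays from -0.23 in AA minus ANA to 0.30 in sP minus sNP (adjusted p = 0.427 and 0.467). Cdh22, which had 2 probe sets, lay between -0.16 and 0.077, and between -0.24 and 0.21 without the 14.

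Cdh10, a type II cadherin found in the developing and adult brain, had the smallest p-value for the mean over pairs. Its mean difference was 0.068 (SE 0.034, adjusted p = 0.623), with 0.065, 0.037, 0.14, 0.033 and 0.069 in the 5 pairs in the order above. In the P pair, where it was widest, P arrays ran from 10.71 through a median of 11.18 to 11.36 and NP arrays from 10.79 through 11.03 to 11.22. The ranges overlapped, and 9 of 10 P arrays lay above the NP mean. Its 5 signs were alike, yet 0.068 did not pass the test.

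Cdh11, a cadherin of mesenchymal cells and neurons, read differently in its 3 probe sets. One (1388936_at) gave -0.24, 0.235, 0.25, -0.048 and -0.0063 in the 5 pairs, with an adjusted p of 0.0867 for variation among pairs. Another (1391146_at) was above 0 in every pair, from 0.030 to 0.12 (from -0.009 to 0.09 without the 14 arrays), and the third (1391088_at) ran from -0.17 to 0.11. In 0 of 5 pairs did the 3 share a sign, and none passed the test in a pair.

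Among the classical type I genes, Cdh2 encodes N-cadherin, the main classical cadherin of neurons and synapses. Its probe set 1387259_at had a mean difference of 0.057 (adjusted p = 0.625), and 1368642_at had 0.034 (adjusted p = 0.918). The weaker probe set 1378271_at had -0.045 (adjusted p = 0.882). For 1387259_at, HAD1 arrays ran from 9.066 through a median of 9.201 to 9.599 and LAD1 arrays from 8.948 through 9.137 to 9.348, the widest of its 5 differences at 0.14. That is, 7 of 9 HAD1 arrays lay above the LAD1 mean within overlapping ranges. For 1368642_at the 5 differences lay between 0.0073 and 0.074.

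Cdh1, the E-cadherin of epithelia, was read near the low end of the array's scale. Its probe set 1386947_at had one of the smallest p-values of HAD2 minus LAD2. HAD2 arrays ran from 5.234 through a median of 5.368 to 5.447, and LAD2 arrays from 5.249 through 5.503 to 5.758. All 10 HAD2 arrays lay below the LAD2 mean and 6 LAD2 arrays lay above every HAD2 array. The difference was -0.16 (SE 0.055, adjusted p = 0.118), which missed the threshold. Without LAD2 19 it was -0.19 and passed (adjusted p = 0.0359). With all arrays the other Cdh1 probe set gave -0.018 (adjusted p = 0.824) in HAD2 minus LAD2, and the pair of probe sets shared a sign in 5 of 5 pairs. Cdh3, the P-cadherin of epithelia, had 0.31 in P minus NP (adjusted p = 1), where 1 P array, P 5, read 9.3 and the P median was 6.568. Cdh15, the M-cadherin of muscle, had the largest mean difference of the class at 0.066 (adjusted p = 0.760).

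Of the cadherins outside these types, Cdh13 encodes T-cadherin, which is held to the membrane by a lipid anchor and lacks an inner tail. Its 3 probe sets had mean differences of 0.0018 (1369425_at), -0.018 (1373102_at) and 0.036 (1375719_s_at), with adjusted p-values of 0.998, 0.974 and 0.942. They shared a sign in 3 of 5 pairs, with the lowest difference at -0.19 in P minus NP and the highest at 0.14 in AA minus ANA, which was 0.23 (adjusted p = 0.158) without the 14 arrays. In the P pair the 1369425_at values ran from 10.36 through a median of 11.26 to 11.42 in P and from 11.17 through 11.34 to 11.61 in NP. The lowest P value came from 1 array, P 5, and the lines overlapped. Cdh23, part of the tip link of inner-ear hair cells, had the largest mean difference of all members at 0.081 (adjusted p = 0.758), and 0.12 without the 14 arrays. Cdh16 of the kidney and Cdh17 of the intestine stayed between -0.13 and 0.11 in all pairs.

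The delta-protocadherins, which act in cell sorting, axon growth and synapse removal, had 0 of 9 probe sets past the test in any comparison. With all arrays, at most 4.54% of all probe sets passed in any of these, so 0 of 9 is near the background. Pcdh10, a protein needed for axon growth through the basal forebrain, had opposite signs in the HAD pairs, -0.25 (adjusted p = 0.174) in HAD1 minus LAD1 and 0.23 (0.180) in HAD2 minus LAD2. HAD1 arrays ran from 9.01 through a median of 9.29 to 9.559 and LAD1 arrays from 9.25 through 9.489 to 9.823. HAD2 arrays ran from 8.797 through 9.165 to 9.535 and LAD2 arrays from 8.652 through 8.916 to 9.298. The lines overlapped in both, with 8 of 9 HAD1 arrays below the LAD1 mean and 9 of 10 HAD2 arrays above the LAD2 mean. Its mean over pairs was 0.0041, and the test of variation among pairs gave an adjusted p of 0.356. The same test gave 0.05865 without the 14 arrays, and passed in neither case. It takes all pairs together, so it cannot decide whether the HAD1 and HAD2 differences differed from each other. That contrast was not tested.

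Pcdh9 and Pcdh17 lay near 0 on average. The 2 Pcdh9 probe sets had mean differences of -0.0027 (1383783_at, adjusted p = 0.997) and 0.041 (1397688_at, 0.966). Pcdh17 encodes a presynaptic protein of basal ganglia circuits, and its 3 probe sets had -0.010, -0.0083 and -0.014, with adjusted p-values of 0.987, 0.993 and 0.986. Pcdh8, the activity-regulated arcadlin, ran from -0.081 in sP minus sNP to 0.13 in P minus NP. Its group means of 7.572 to 7.921 in the HAD and LAD lines and of 9.063 or more in the others stepped with the GAPDH ratio, so no difference between pairs was drawn from them. Pcdh18 and Pcdh19, the latter an X-linked gene of epilepsy in females, had mean differences of 0.024 and 0.038.

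Pcdh15, the partner of Cdh23 in the hair-cell tip link, had one of the smallest p-values of AA minus ANA. AA arrays ran from 7.8 through a median of 8.299 to 8.912 and ANA arrays from 7.516 through 8.123 to 8.245. In all, 7 of 10 AA arrays lay above every ANA array, though the lines overlapped. The difference was 0.27 (SE 0.11, adjusted p = 0.949). In the limma fit with 1 spread over all 10 lines, the same difference passed (adjusted p = 0.0383), where 0.654% of all probe sets passed. That fit assumes a common spread, while the Pcdh15 SDs ran from 0.0285 in LAD2 to 0.314 in AA. Without the 14 arrays the difference was 0.42 (adjusted p = 0.0576) in the fit of the pair alone. Pcdh20 had its widest value in sP minus sNP, 0.24 for 1391208_at (adjusted p = 0.9998), where sP arrays ran from 10.56 through 11.07 to 11.65 and sNP arrays from 10.36 through 10.98 to 11.16. Its other probe set gave 0.098 there, and both shared a sign in 5 of 5 pairs.

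The clustered protocadherins held both members whose difference depended on the line pair. On the test of variation among pairs, 2 of the 46 members passed, Pcdhb19 and Pcdhb17, against 4.54% of all probe sets, so the share of members was close to the background. Pcdhb17 and Pcdhb19 are adjacent in the RefSeq gene order of the beta cluster. Each encodes the whole outer part, membrane span and short tail of its protein in 1 exon, as Pcdhb genes do.

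Pcdhb19 was higher in the preferring line of some pairs and lower in others. In HAD1 its level was lowest at 7.942, with a median of 8.237 and a highest value of 8.613, and in LAD1 these were 8.124, 8.446 and 8.67. In HAD2 they were 8.45, 8.792 and 9.013, and in LAD2 8.115, 8.588 and 8.8. Thus 8 of 9 HAD1 arrays lay below the LAD1 mean and 9 of 10 HAD2 arrays lay above the LAD2 mean. In P they were 8.626, 8.886 and 9.419, and in NP 8.308, 8.664 and 9.187. In AA they were 8.343, 8.547 and 9.195, and in ANA 8.391, 8.912 and 9.419. Here 8 of 10 P arrays lay above the NP mean and 9 of 10 AA arrays lay below the ANA mean. In sP they were 8.865, 9.023 and 9.533, and in sNP 8.883, 9.199 and 9.494. The lines overlapped in every pair.

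The Pcdhb19 differences were -0.21 (SE 0.081, adjusted p = 0.306) in HAD1 minus LAD1, 0.27 (SE 0.081, 0.0648) in HAD2 minus LAD2 and 0.28 (SE 0.12, 0.929) in P minus NP. They were -0.35 (SE 0.11, 0.721) in AA minus ANA and -0.14 (SE 0.099, 0.9998) in sP minus sNP. None passed on its own, and the mean over pairs was -0.031 (SE 0.047, adjusted p = 0.966). The SDs of the single lines ran from 0.149 in LAD1 to 0.296 in ANA. By limma's F test, which assumes 1 spread over all 10 lines, the differences varied among pairs (F = 7.88, adjusted p = 0.00104). That call held in every fit that left out 1 of the 96 arrays, with adjusted p-values from 0.000113 to 0.00205. Without the 14 arrays the adjusted p for variation was 3.155e-07, and AA minus ANA passed by itself at -0.50 (adjusted p = 0.00739), where 1.87% of all probe sets passed; sP minus sNP was then -0.23 (adjusted p = 0.345). In HAD2 minus LAD2, leaving out LAD2 11 or HAD2 10 brought the adjusted p to 0.0285 or 0.0196.

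Pcdhb17 had the same signs as Pcdhb19 in the HAD1, HAD2, P and AA pairs. Its P arrays ran from 6.588 through a median of 7.49 to 8.236 and its NP arrays from 6.551 through 7.051 to 7.669. AA arrays ran from 5.838 through 6.558 to 7.205 and ANA arrays from 6.227 through 7.32 to 7.557. In the P pair 9 of 10 P arrays lay above the NP mean, and in the AA pair 6 ANA arrays lay above every AA array. HAD1 arrays ran from 7.384 through 7.656 to 8.078 and LAD1 arrays from 7.322 through 7.932 to 8.368. HAD2 arrays ran from 6.556 through 7.404 to 7.765 and LAD2 arrays from 7.023 through 7.286 to 7.604, and sP and sNP arrays lay together between 5.791 and 6.694. The lines overlapped in all 5 pairs.

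The Pcdhb17 differences were 0.44 (SE 0.18, adjusted p = 0.861) in P minus NP and -0.47 (SE 0.20, 0.980) in AA minus ANA, the widest of any member in those pairs. They were -0.22 in HAD1 minus LAD1, 0.027 in HAD2 minus LAD2 and 0.046 in sP minus sNP. The test of variation assumes 1 spread over all 10 lines, while the Pcdhb17 SDs ran from 0.193 in LAD2 to 0.536 in ANA. Variation among pairs passed narrowly (F = 4.51, adjusted p = 0.0499). It was lost in 70 of the 96 fits that left out 1 array, where the adjusted p ran from 0.0115 to 0.0999. Without the 14 arrays, P minus NP passed at 0.69 (adjusted p = 0.0316), where 1.62% of all probe sets passed, AA minus ANA was -0.70 (adjusted p = 0.113), and variation gave 3.387e-05.

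**Figure D3:**
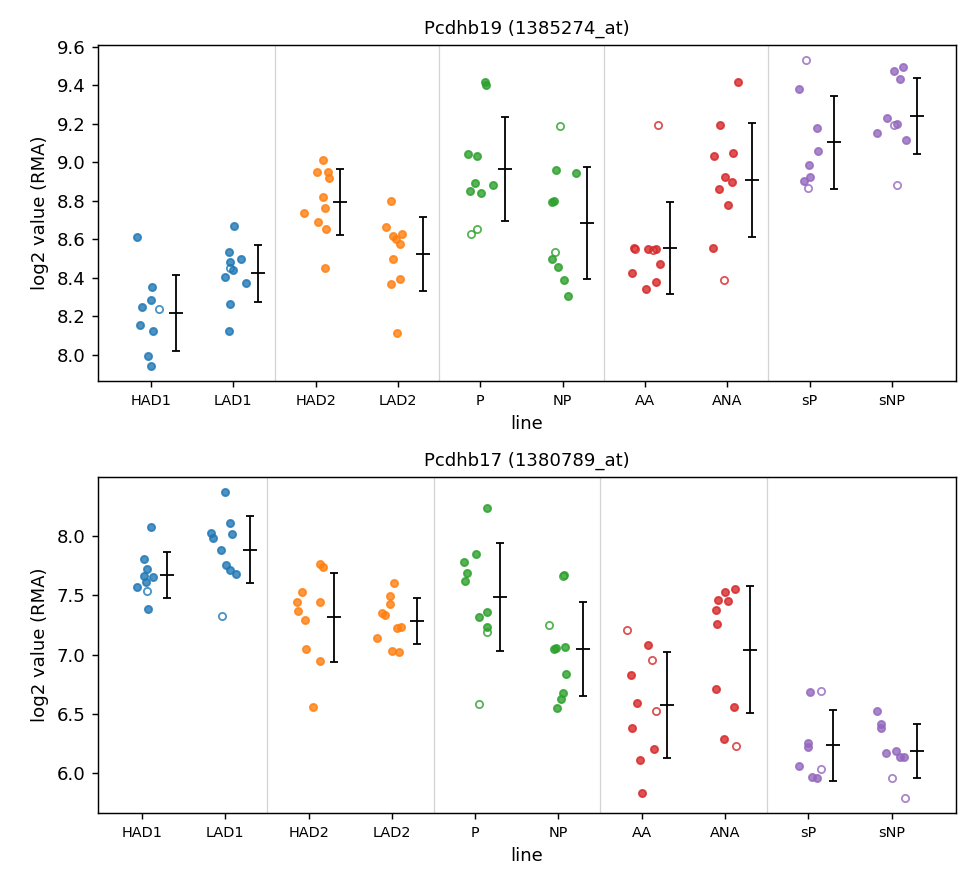
Levels of Pcdhb19 and Pcdhb17 on each array, in log2 RMA units, by line; bars show the mean ± SD and open circles mark the 14 arrays on the other line's side. The preferring line lies higher in the P pair and lower in the AA pair for both genes, at 0.28 and -0.35 for Pcdhb19 and 0.44 and -0.47 for Pcdhb17, and the lines overlap in each pair.

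Pcdhb12 was read by a pair of probe sets. For 1370490_at, P arrays ran from 6.209 through a median of 6.783 to 7.019 and NP arrays from 5.969 through 6.386 to 6.723. In the other direction, sP arrays ran from 6.327 through 6.401 to 6.61 and sNP arrays from 6.286 through 6.627 to 6.899. In all, 9 of 10 P arrays lay above the NP mean and 8 of 8 sP arrays lay below the sNP mean, within overlapping ranges. The differences were 0.32 (SE 0.11, adjusted p = 0.656) and -0.19 (SE 0.082, adjusted p = 0.9998), and variation among pairs gave 0.0882. Without the 14 arrays, sP minus sNP passed at -0.32 (adjusted p = 0.0240), where 1.75% of all probe sets passed. The second probe set, 1385327_at, gave 0.12 and 0.042 in these pairs, and its widest difference was 0.21 in HAD2 minus LAD2 (adjusted p = 0.290).

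The remaining Pcdhb genes, Pcdhb6, Pcdhb9, Pcdhb21 and Pcdhb22, lay between -0.18 and 0.16 in every pair, and between -0.23 and 0.20 without the 14 arrays. Taken as a row of 8 probe sets, 1 was above 0 in HAD1 minus LAD1 (median -0.042), 7 in HAD2 minus LAD2 (0.054), 7 in P minus NP (0.14), 0 in AA minus ANA (-0.15) and 4 in sP minus sNP (-0.0019). Over all probe sets the shares above 0 were 48.7%, 45.6%, 49.8%, 53.1% and 46.3%. These 8 probe sets, of 7 genes, share sequence, lie in the same gene cluster and were read on the same arrays, so they are not independent. Probes for one Pcdhb gene may bind a close copy, and a base pair that differs between 2 lines where a probe binds may alter its reading; neither was tested.

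**Figure D4:**
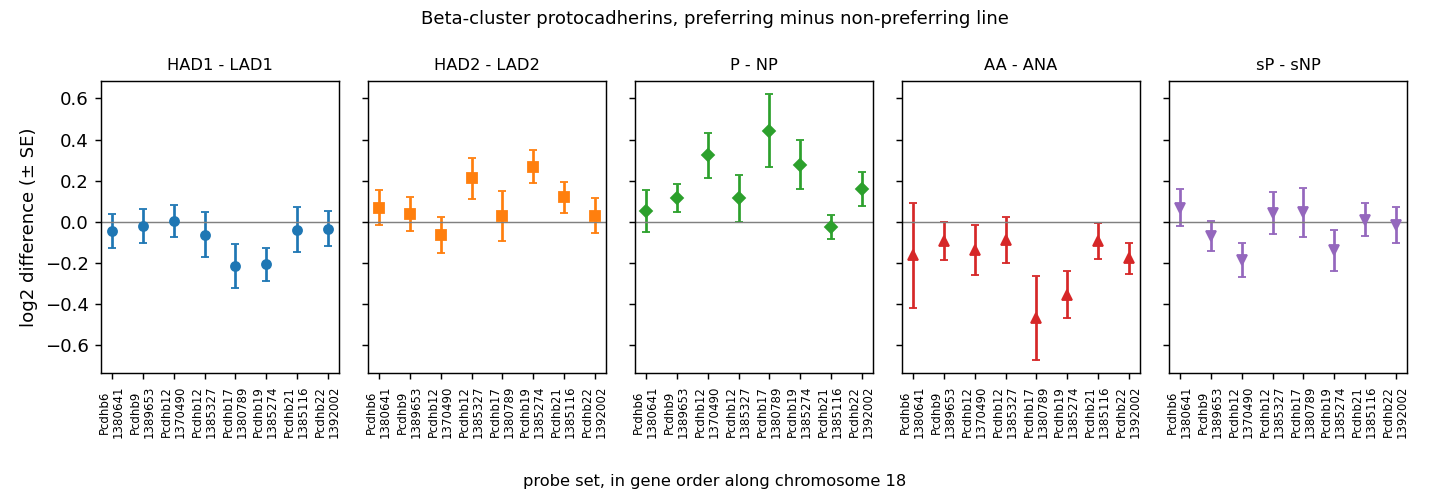
Differences of the 8 Pcdhb probe sets in the order of their genes along the cluster, in log2 units, preferring minus non-preferring, ± SE, by line pair. In AA minus ANA all 8 lie below 0 and in P minus NP 7 lie above 0, with Pcdhb17 farthest from 0 in both.

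The alpha cluster was read by Pcdha12 and Pcdha13, which take their variable exons from a row of choices and share constant exons. Pcdha13 had the largest mean difference of the clustered genes at 0.071 (adjusted p = 0.793), and Pcdha12 had -0.0017. In addition, 4 probe sets that list 13 to 15 symbols each, 2 of the alpha and 2 of the gamma cluster, were left out of the members. Their differences ran from -0.093 to 0.074 in the 5 pairs and none passed the test.

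Some marker lists leaned to one side in the HAD2, P, AA and sP pairs. In HAD2 minus LAD2, 1 of 10 central amygdala markers was above 0 (median -0.109), and 0 of them passed the test. Their summed level, as log2, ran from 15.03 to 15.6 in HAD2 and from 15.27 to 15.67 in LAD2. In that pair 7 of 9 astrocyte markers, of which Gjb6 passed as higher, and 6 of 8 oligodendrocyte markers were above 0. Of the microglial markers 3 of 9 were above 0, and Cx3cr1 and P2ry12 passed, 1 higher and 1 lower. Of the endothelial and pericyte markers 5 of 10 were above 0, and Tek, Abcb1a and Rgs5 passed, 2 higher and 1 lower. Over all probe sets 4.09% passed in that pair. In AA minus ANA, 0 of 8 measured oligodendrocyte markers (median -0.18) and 0 of 6 striatal markers (median -0.23) were above 0, and none passed the test. The summed oligodendrocyte level, as log2, ran from 15.92 to 17.33 in AA and from 16.57 to 17.28 in ANA, and the striatal one from 12.24 to 14.28 and from 13.14 to 14.22. In P minus NP these lists were likewise above 0 for 0 of 8 and 0 of 6, with oligodendrocyte sums of 15.91 to 17.23 in P and 16.41 to 17.41 in NP and striatal sums of 12.97 to 14.8 and 12.72 to 14.74. Also in P minus NP, 6 of 7 choroid plexus and meningeal markers were above 0 (median 0.21), with sums of 9.694 to 15.39 in P, the highest on P 5, and 9.518 to 10.5 in NP. In AA minus ANA, 4 of 5 cortical and basolateral markers were above 0 (median 0.25), with sums of 12.8 to 14 in AA and 12.71 to 13.81 in ANA. In sP minus sNP, 6 of 6 striatal and 10 of 10 endothelial and pericyte markers were above 0, with striatal sums of 13.22 to 14.76 in sP and 13.27 to 14.71 in sNP and endothelial sums of 12.94 to 13.39 and 12.65 to 13.33. The weakest markers of the oligodendrocyte, striatal and endothelial lists, Sox10, Drd2 and Tie1, had group means of at least 9.4, 9.87 and 6.93; Kl of the choroid list had 5.29 in P and 4.75 in NP, and Tbr1 of the cortical list 4.85 in AA and 4.82 in ANA. Their part in the Pcdhb results was not tested.

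Without the 14 arrays, 6 members passed the test of variation among pairs, against 10.9% of all probe sets. They were Pcdhb19, Pcdhb17, Pcdhb12 (1370490_at, 0.000250), Pcdh15 (0.000322), Cdh1 (1386947_at, 0.0176) and Cdh20 (0.0324), with the adjusted p in parentheses where it is not given above. The members' share, 6 of 46, was again near the background.

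Genes that work with cadherins were read from lists of partners and relatives. Of 20 listed catenins and adhesion partners 18 were measured, and of 20 genes of cadherin shedding and of clustered protocadherin regulation 19 were, and 0 of either list passed in any comparison. At most 4.54% of all probe sets passed in any of those comparisons, so these counts are near the background too. Of 25 other members of the cadherin superfamily 19 were measured and 1 passed, Fat3, a giant cadherin that shapes the dendrites of neurons. It was higher in HAD2 than in LAD2 by 0.26 (SE 0.053, adjusted p = 0.0033), a comparison in which 4.09% of all probe sets passed, so 1 of 19 is near the background. In the other pairs Fat3 had 0.017, -0.15, -0.14 and -0.19, and its variation among pairs gave an adjusted p of 0.21.

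Probe sets of 1 gene often disagreed in sign. Over the 9 genes with several probe sets, all of a gene's probe sets shared a sign in 23 of 45 combinations of gene and pair. Among the members 26 of 46 belonged to the brighter 50% of probe sets, and Cdh20, Pcdhb17 and Cdh1 did not.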

How the data were processed

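RNA of the central nucleus of the amygdala was amplified from 25 ng of total RNA and hybridised to 96 rat arrays, per the labels' protocols. The deposited log2 values were made by the authors with RMA, per the submitters' processing notes; its version and the set of arrays it was run on are not stated there. The 57 control probe sets were left out and no filter on low values was set. Symbols came from the platform annotation; 44 of the 46 member probe sets matched RefSeq (GRCr8), the source of chromosome, gene order and promoters.

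Tests were run in limma 3.58.1 (R 4.3.3), 1 fit per pair, two-sided, with an intensity trend and Benjamini-Hochberg adjustment over all 31042 probe sets. A fit of all 10 lines gave the mean of the 5 differences and an F test of their variation. It assumes 1 spread per probe set over all lines, though the spread differed between lines. A further fit took the pair as the replicate. Scripts were tested on simulated data. The number of arrays limits the precision.

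An array's score was its median place between the medians of the lines, computed without it, over the 100 probe sets with the clearest separation on odd, or on even, chromosomes.

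Alternatives were a brightness filter, 1 probe set per gene, quantile normalization, array weights, no trend, 1 fit of all lines, each array left out, LAD1 36 left out or moved, and a replicate block; leaving out the 14 arrays, or sP 2 and sNP 2, was added after seeing the data. Described in full were members past a test or, where none passed, the 2 with the smallest p, the other probe sets of those genes, the extremes of each class, and Cdh2, Cdh8, Cdh13, Pcdh9, Pcdh10 and Pcdh17. Cdh3, Cdh6, Cdh7, Cdh12, Pcdh8, Pcdh18 and Pcdh19 were added after their values were seen. Members, lists and rules were chosen with earlier results of these data known.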

Additional observations from a re-analysis of the deposited data

Results flagged for a closer look

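The Pcdhb19 difference varied among line pairs (adjusted p = 0.001041), and so did that of Pcdhb17 (adjusted p = 0.04994, which 70 of 96 single-array omissions raised above 0.05).

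Single arrays stood apart from the others of their line in 15 of 210 groups (7.14%) over 21 probe sets of named genes, by Dixon's ratio at its 95% level; chance gives about 1 in 20. P 5 stood low in several members at once: 10.71 for Cdh10, and 10.36 (1369425_at), 9.942 (1373102_at) and 10.97 (1375719_s_at) for Cdh13. ANA 20 read 12.11 for Cdh2 (1368642_at) and 11.22 for Cdh13 (1375719_s_at), and NP 10 read 11.61 for Cdh13 (1369425_at). AA 19, one of the 14 arrays on the other line's side, read 9.195 for Pcdhb19, where the nearest AA array read 8.552, and 9.99 for Pcdh9 (1397688_at). Of the same 14 arrays, AA 17 read 4.814 and ANA 16 read 4.839 for Cdh1 (1386947_at). The remaining single arrays were NP 3 at 8.292 and ANA 6 at 7.516 for Pcdh15, LAD1 40 at 12.46 for Cdh10 and sP 7 at 10.31 for Pcdh9 (1397688_at).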

How the results depend on the processing

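No member changed its call on the mean over pairs or with the pair as the replicate, which stayed at 0 of 46 under every alternative run. The count for HAD1 minus LAD1 fell from 1 to 0 with the brighter 50% of probe sets, where Cdh20 was not tested, and with LAD1 36 counted as HAD1 (adjusted p for Cdh20 0.254). HAD2 minus LAD2 rose to 1 with array weights (Pcdhb19, 0.29, adjusted p = 0.0207; 5.85% of all probe sets passed). Without the 14 arrays, P minus NP, AA minus ANA and sP minus sNP each rose from 0 to 1, and AA minus ANA rose to 1 in the fit of all 10 lines, through Pcdh15. The count for variation among pairs, 2, was 1 with the brighter 50%, 1 probe set per gene, quantile normalization, no intensity trend and LAD1 36 counted as HAD1, 7 with array weights (12.8% of all probe sets then passed) and 6 without the 14 arrays (10.9%). For Pcdhb17 these gave adjusted p-values of 0.0572 (1 probe set per gene), 0.0530 (quantile), 0.0502 (no trend) and 0.0511 (LAD1 36); the brighter 50% did not hold its probe set. The causes were not tested.

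With each array left out in turn, the counts ran from 0 to 1 in HAD1 minus LAD1 (7 of 19 omissions changed it), from 0 to 1 in HAD2 minus LAD2 (3 of 20) and from 1 to 4 in variation, where 68 omissions gave 1, 23 gave 2, 4 gave 3 and 1 gave 4; P minus NP, AA minus ANA and sP minus sNP stayed at 0. Of the 25 named values 17 stayed on the same side of the threshold under every alternative. Among these 17, the variation of Pcdhb19 among pairs was the single value past the test, and the rest stayed above 0.05. The Cdh20 and Pcdhb17 calls were each lost under some alternatives.

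P with NP and sP with sNP share replicate numbers. A replicate block left the counts at 0 in both. Same-numbered arrays' deviations correlated from -0.107 to 0.505 over 10 numbers in the P pair (2 arrays matched their own number best) and from -0.176 to 0.768 over 8 in the sP pair (1 did), so the numbers were not taken to pair the rats.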
